A study of Sus scrofa with 3 samples.

Results

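The genes described here are 10 genes of the hepatic acute phase response in pig liver: the secreted proteins HP, HPX, ITIH4, CRP, LBP, SAA3 and ORM1, and the signalling genes STAT3, IL6R and IL6ST. They were chosen by gene name from the 34579 features listed in each deposited table, of which 22945 were mRNA features. A symbol matched for 9 of the 10, and SAA3 was matched by its gene ID, under which the files list it as LOC733603. All 10 had an FPKM (by name, fragments per kilobase of exon, scaled to the mapped fragments of the library) of at least 1 in every library, as did 15613 of the mRNA features. The scale of the deposited values was not in proportion to the reads recovered from them, as given with the processing below.

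The acute phase response is the change in plasma proteins that follows infection, injury or other inflammation, and the hepatocyte is its main source. Interleukin-6 binds its receptor IL6R, the complex engages the shared signalling chain IL6ST (gp130), and JAK kinases then activate the transcription factor STAT3, which drives transcription of acute phase genes together with C/EBP factors and with inputs from IL1 and TNF. Proteins whose plasma level goes up in this response are called positive acute phase proteins, and those whose level goes down, such as albumin, are called negative. In the pig, haptoglobin (HP), C-reactive protein (CRP), serum amyloid A and ITIH4, also known as pig-MAP, are used in blood as measures of inflammation.

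Liver RNA was sequenced from male Chinese Wuzhishan miniature pigs, labelled as 6 to 7 months old. Their diet was rich in fat and cholesterol for 12 weeks in all groups. The study's methods give this age for the pigs as obtained. Acclimation and the diet came afterwards, so the livers came from older pigs. Intact males (IM) kept their testes after a sham operation, castrated males (CM) had lost them by surgery, and castrated males given testosterone (CMT) were castrated in the same way and received weekly intramuscular testosterone propionate at 10 mg/kg. Each group was represented by 1 library of RNA pooled from 3 pigs according to the labels, whereas the study's methods describe larger groups whose RNA was pooled, so the number of pigs behind each library is not settled. CM versus IM asks how the genes differed after castration, and CMT versus CM asks how they differed when testosterone was given back.

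With 1 pool per group there was no replicate, the variation between pigs is not known, and no test or p-value is given. Both comparisons use the CM library, so a value particular to that pool moves them in opposite directions. No group on a normal diet was analysed here, so all values are those of pigs on the diet. For most features the whole number of reads behind a value could be recovered from the steps between FPKM values. The 95% intervals printed here come from those reads and cover counting error only. They are too narrow if both reads of a pair were counted.

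The tables gave 32197628 recovered reads for IM, 36126730 for CM and 25419901 for CMT. The deposited FPKM values summed to 8660405, 7247699 and 8603712, so the CM column was the lowest as a whole. Defining hepatocyte genes were at high levels in every library. ALB (albumin) stood at 690375 FPKM in IM, against 476360 in CM and 445509 in CMT. The 13 hepatocyte markers measured, ALB not among them, summed to 217745, 178313 and 211567 FPKM. The 11 macrophage markers measured summed to 20707, 19149 and 22196 FPKM, with CD68 and ADGRE1 not matched in the tables. The 8 neutrophil markers summed to 184.1, 96.3 and 65.9 FPKM, and the 12 T and NK cell markers to 701.0, 888.0 and 570.4 FPKM. The 7 endothelial markers lay between 3102 and 3817 FPKM in sum and the 8 stellate cell markers between 1276 and 1544 FPKM. The 4 cholangiocyte markers summed to 856.3, 804.9 and 1185 FPKM, with KRT7 and KRT19 not matched. Although their sum was lowest in CM, 3 of these 4 were at least 1.5-fold higher in CM than in IM and 0 lower, against 11.1% and 12.1% of all features. In CMT versus CM, 1 was higher and 2 lower, against 12.1% and 13.5%. In whole liver, fewer cells of a type and less RNA per cell cannot be told apart.

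The 10 genes spanned a wide range of levels. HPX and HP were among the most abundant mRNA features of the liver, ITIH4 followed in IM and CMT, and ORM1, CRP, SAA3 and LBP lay below it there, while in CM ORM1 and SAA3 were above ITIH4. STAT3, IL6R and IL6ST were the lowest in all 3 libraries. Summed over the 7 secreted proteins, the level was 118943 FPKM in IM, against 94999 in CM and 130042 in CMT. These sums are mostly HPX and HP, and the individual genes differed in size and direction.

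**Figure D1:**
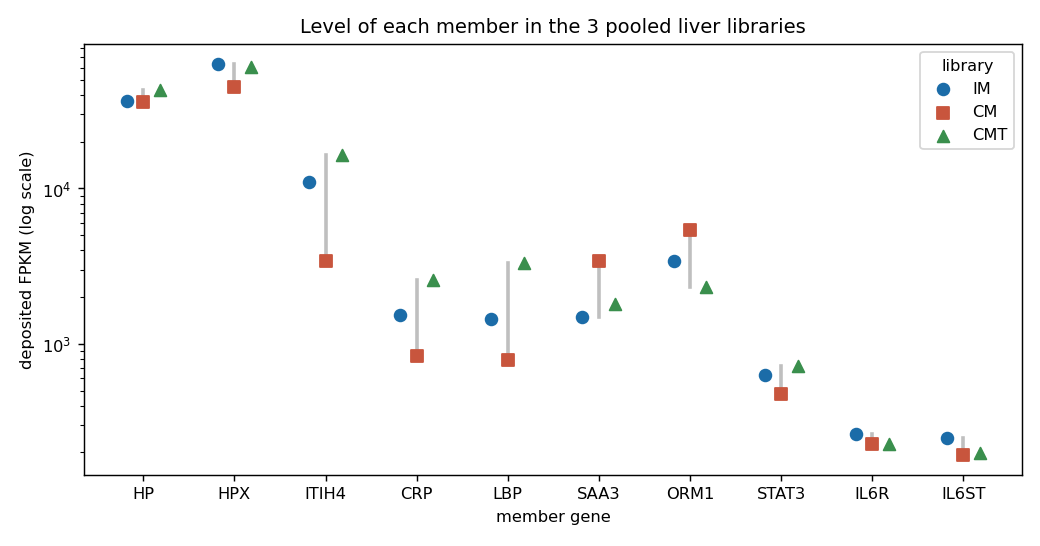
Deposited FPKM on a log axis for each of the 10 genes in the IM (circles), CM (squares) and CMT (triangles) libraries, 1 pooled library each, with a grey line joining the lowest and the highest. With the deposited values CM was the lowest library for 8 genes and the highest for ORM1 and SAA3. Of the 15613 mRNA features, 6043 were lowest and 5498 highest in CM. For HP, IL6R and IL6ST, which are among the 8, a ratio to CM changed sign under other scalings.

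Haptoglobin binds free haemoglobin and is made in large amounts by the liver. HP stood at 36449 FPKM in IM, against 36006 in CM and 42902 in CMT, and ranked 28, 23 and 23 among the mRNA features. Its log2 ratio was -0.02 in CM versus IM and 0.25 in CMT versus CM, and both values changed sign under other scalings of the libraries, so no direction is drawn from them. The log2 ratio of CMT versus CM ranged from -0.04 to 0.25 over the scalings. The gene had between 243133 and 342084 reads per library, so counting error is small beside this range.

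Hemopexin binds free haem. HPX was the most abundant of the 10, at 63635 FPKM in IM, against 45185 in CM and 60691 in CMT, and ranked 16, 16 and 15. With the deposited values CM was the low library, 1.41-fold below IM (1.40 to 1.42) and 1.34-fold below CMT (1.34 to 1.35). CMT and IM differed by -0.07 on the log2 scale. Under other scalings the log2 ratio of HPX came to -0.18 in CM versus IM and 0.13 in CMT versus CM. HP and HPX both stayed under a 1.5-fold difference in each of the 3 comparisons.

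ITIH4, an inter-alpha-trypsin inhibitor heavy chain and a major pig acute phase protein, showed the widest range of the 10. Its level was 10947 FPKM in IM, against 3391 in CM and 16428 in CMT, on 59926, 25290 and 73090 reads. CM was 3.23-fold below IM (3.18 to 3.28), and CMT was 4.85-fold above CM (4.78 to 4.92). The CM pool was thus far below both others, and CMT lay above IM by 0.59 on the log2 scale (0.57 to 0.60), just past the 1.5-fold limit. Its rank among mRNA features went from 116 in IM to 311 in CM, and 77 in CMT. Of the 15613 mRNA features, 210 had a lower ratio in CM versus IM and 89 had a higher ratio in CMT versus CM.

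Related entries were read beside ITIH4. LOC100737917, named as an ITIH4-like gene in the study's own tables, stood at 11077 FPKM in IM, against 3363 in CM and 17562 in CMT, close to ITIH4 in every library. How reads were shared between these 2 entries by the counting is not known, so their values may not be independent, and with both summed the log2 ratios were -1.71 in CM versus IM and 2.33 in CMT versus CM. ITIH3 and ITIH1, which sit next to ITIH4 in the Sscrofa11.1 annotation, were named after their values were seen. ITIH3 stood at 9242, 7090 and 8301 FPKM, and ITIH1, which was placed among the negative acute phase genes, at 17097, 17076 and 15440 FPKM. Neither passed 1.5-fold in any comparison.

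CRP is a pentraxin that binds phosphocholine on microbes and dying cells. It stood at 1531 FPKM in IM, against 831.7 in CM and 2568 in CMT, on 19871, 14712 and 27090 reads. CM was 1.84-fold below IM (1.80 to 1.88), and CMT was 3.09-fold above CM (3.03 to 3.15) and 1.68-fold above IM (1.65 to 1.71). The order was therefore CMT, IM and CM, as for ITIH4. RefSeq lists 2 pig genes under the name CRP, and the other entry, LOC100620468, stood at 762.1, 568.4 and 1321 FPKM. That entry kept the same order with log2 ratios of -0.42 and 1.22, and summing it with CRP gave -0.71 and 1.47.

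LBP binds bacterial lipopolysaccharide and passes it to CD14. Its level was 1452 FPKM in IM, against 789.9 in CM and 3323 in CMT, on 6312, 4679 and 11742 reads. CM was 1.84-fold below IM (1.77 to 1.91), the same difference as for CRP. CMT was 4.21-fold above CM (4.07 to 4.35) and 2.29-fold above IM (2.22 to 2.36), the largest CMT versus IM difference of the 10, with 202 of the mRNA features above it in that comparison. ITIH4, CRP and LBP were thus the genes whose CM level was at least 1.5-fold below both other libraries, and in all 3 of them CMT was also at least 1.5-fold above IM.

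Serum amyloid A and alpha-1-acid glycoprotein went the other way. SAA3, an apolipoprotein of the serum amyloid A family, stood at 1493 FPKM in IM, against 3391 in CM and 1811 in CMT, on 5074, 15702 and 5003 reads. CM was 2.27-fold above IM (2.20 to 2.34), and CMT was 1.87-fold below CM (1.81 to 1.93) and 1.21-fold above IM (1.17 to 1.26). In the CM pool SAA3 and ITIH4 were at the same FPKM, while in IM and CMT ITIH4 was several-fold the higher.

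ORM1 encodes alpha-1-acid glycoprotein, a plasma carrier of basic and lipophilic compounds. It stood at 3437 FPKM in IM, against 5405 in CM and 2319 in CMT, so CM was 1.57-fold above IM and CMT was 2.33-fold below CM and 1.48-fold below IM. Whole reads could not be recovered for this gene, and its ratios have no counting interval. LOC102157831, an alpha-1-acid glycoprotein-like entry named after its values were seen, had the same order at 8386, 13393 and 5758 FPKM, with log2 ratios of 0.68 and -1.22. The tables do not show how reads were divided between the pair, and summed they gave 0.67 and -1.22.

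In CM versus IM and CMT versus CM the signalling genes differed less than ITIH4, CRP, LBP, SAA3 and ORM1, though not less than HP and HPX throughout. STAT3, the transcription factor downstream of IL6ST, stood at 626.9 FPKM in IM, against 478.1 in CM and 722.8 in CMT, on 3539, 3677 and 3316 reads. CM was 1.31-fold below IM (1.25 to 1.37), and CMT was 1.51-fold above CM, with an interval of 1.44 to 1.58 that includes the 1.5-fold limit. IL6ST, the shared signal chain, stood at 247.3, 192.1 and 199.8 FPKM. IL6ST was 1.29-fold lower in CM than in IM (1.21 to 1.37) with the deposited values. CMT and CM differed by 0.06 on the log2 scale, with an interval of -0.05 to 0.16 that holds 0. The CM versus IM differences of STAT3 and IL6ST were much smaller under some scalings, as given below. IL6R, the ligand-binding chain, stood at 264.2, 227.8 and 228.3 FPKM, with intervals that hold a ratio of 1 in all 3 comparisons. IL6R rested on at least 252, 296 and 177 reads, since the recovery can lose a factor common to all libraries, and its intervals may therefore be too wide.

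**Figure D2:**
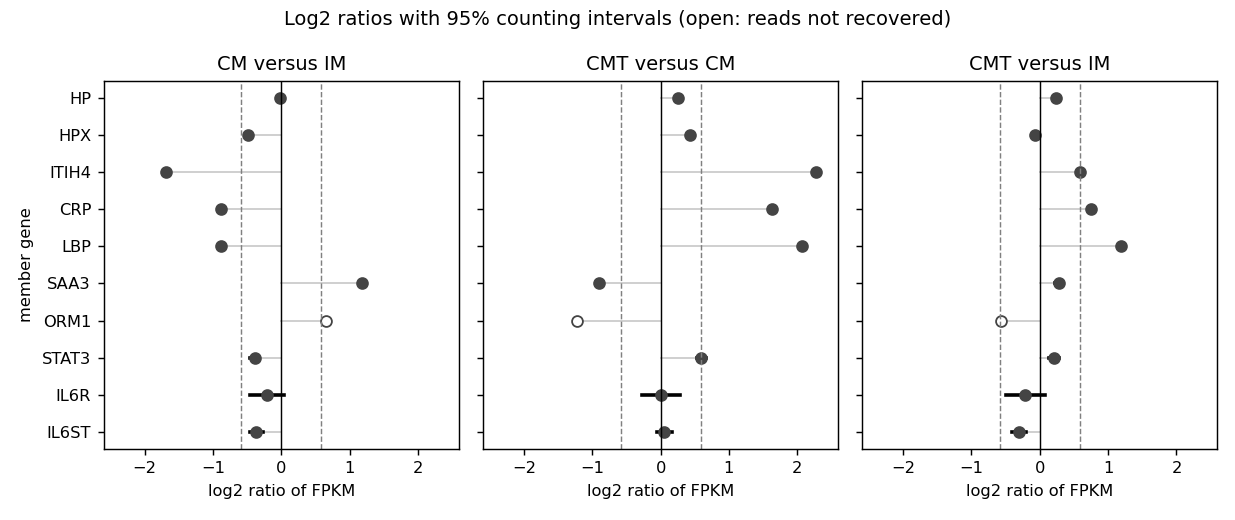
Log2 ratio of FPKM for each of the 10 genes in the 3 pairwise comparisons of libraries (panels), with 95% counting intervals as black bars, often narrower than the point, and dashed lines at 1.5-fold. ITIH4, CRP and LBP lie left of the lower line in CM versus IM and right of the upper line in CMT versus CM, SAA3 and ORM1 show the opposite, and the open point marks ORM1, whose reads were not recovered.

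Counted at 1.5-fold, 3 of the 10 genes lay below IM in the CM library and 2 lay above it, where 11.1% of all mRNA features were higher and 12.1% lower. In CMT versus CM, 4 of the 10 were higher and 2 lower, against 12.1% and 13.5% of all features. In CMT versus IM, 3 were higher and 0 lower, against 6.67% and 10.1%. Of the 10, 3 had their lowest level in CM by 1.5-fold against both other libraries and 2 their highest, against 7.12% and 6.87% of all features. Median log2 ratios of the 10 genes were -0.38, 0.34 and 0.22 in CM versus IM, CMT versus CM and, last, CMT versus IM. For all mRNA features they were -0.02, 0.01 and -0.01, and for the 13 hepatocyte markers -0.31, 0.43 and -0.02. The medians in the first 2 comparisons were thus near those of the hepatocyte markers. With 10 genes chosen by name, these counts describe the genes and say nothing of acute phase genes in general.

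**Figure D3:**
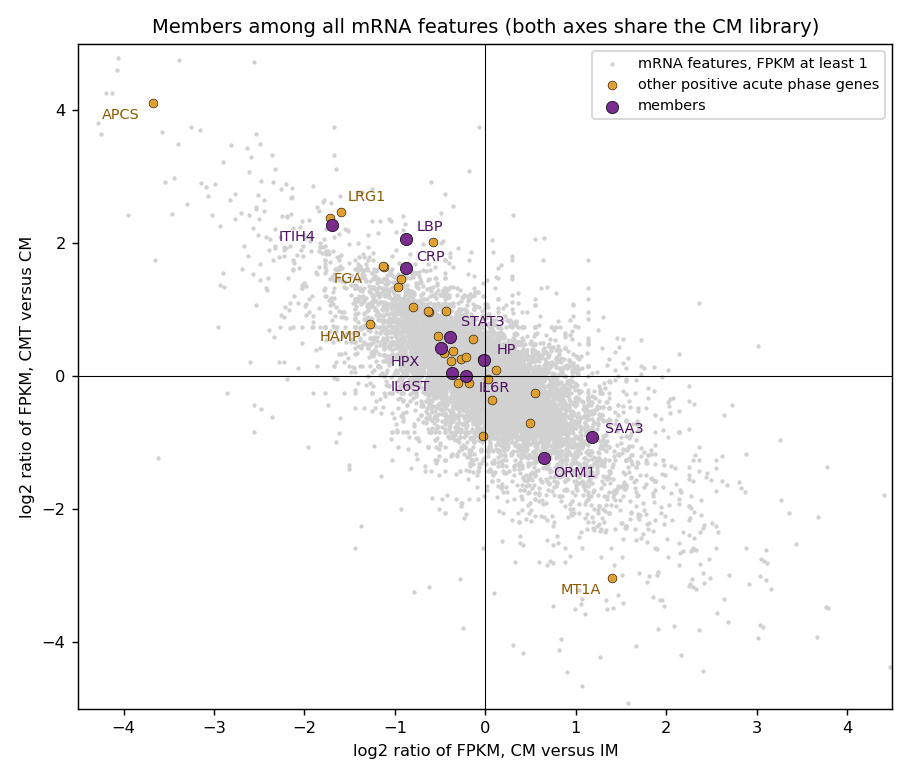
Each mRNA feature with FPKM of at least 1 in all libraries (grey, 15595 drawn and 18 outside the axes) by its log2 ratio in CM versus IM (horizontal) and in CMT versus CM (vertical), with the 10 genes in purple and 30 other positive acute phase genes in orange. The axes share the CM library, which by itself tilts the cloud downwards, and ITIH4, LBP and CRP lie at the upper left, SAA3 and ORM1 at the lower right and the other 5 near the centre.

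The values depend on how the libraries are brought to one scale. The deposited FPKM values were used as they stand, and since the CM column had the smallest sum, scaling to equal column sums, to recovered reads or to the hepatocyte markers adds between 0.26 and 0.31 to each log2 ratio of CM versus IM and takes 0.24 to 0.30 from CMT versus CM. Under these 3 scalings and 2 others, ITIH4 kept a CM versus IM log2 ratio between -1.69 and -1.38 and stayed past 1.5-fold in CM versus IM and CMT versus CM. CRP and LBP came to -0.57 each in CM versus IM with hepatocyte markers as the scale, just short of 1.5-fold, and stayed past it in CMT versus CM at 1.33 and 1.78 or more. SAA3 and ORM1 stayed past 1.5-fold in both, at log2 ratios of at least 1.18 and 0.65 in CM versus IM. HP and IL6R changed sign between scalings in CM versus IM, and HP, IL6R and IL6ST did so in CMT versus CM, so those ratios have no settled direction. HPX, STAT3 and IL6ST kept their sign in CM versus IM. With hepatocyte markers as the scale they came to -0.18, -0.08 and -0.05 there. STAT3 in CMT versus CM was at 0.60 with the deposited values and between 0.30 and 0.58 under the 5 scalings, all short of 1.5-fold, so the count of 4 higher there was 3 under each of them. In CMT versus IM, ITIH4 fell short of 1.5-fold and ORM1 passed it when scaled to the upper quartile. The split over all mRNA features moved more. Scaled to recovered reads, 22.0% were higher and 6.42% lower in CM versus IM, and 6.82% higher and 22.4% lower in CMT versus CM, while the members' counts of 2 higher and 3 lower in CM versus IM were the same under every scaling except the hepatocyte markers.

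**Figure D4:**
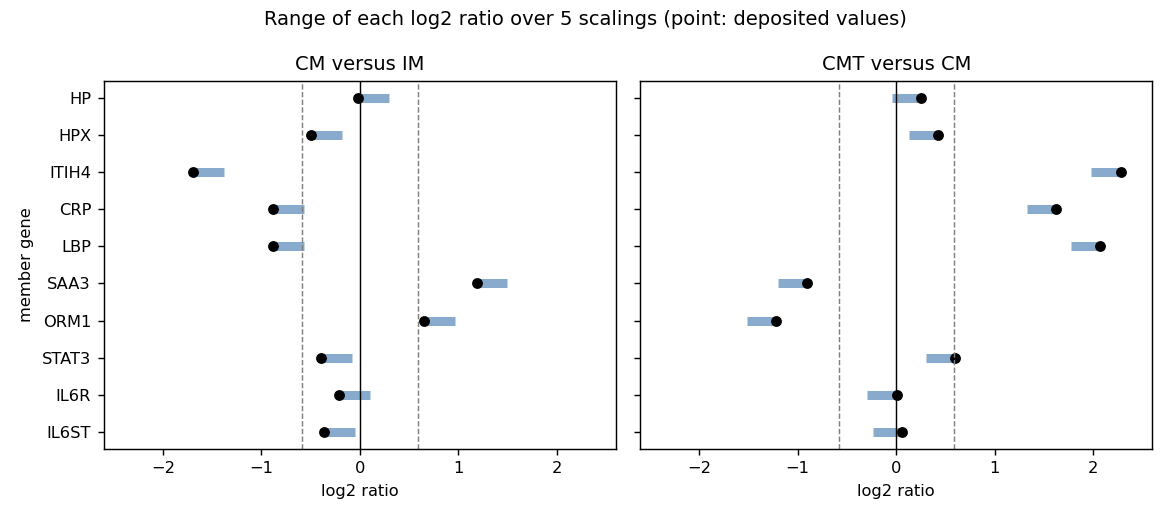
Log2 ratio of each of the 10 genes in CM versus IM and CMT versus CM, with the deposited values as black points, the range over the deposited values and 5 scalings as blue bars, and dashed lines at 1.5-fold. The bars of ITIH4, SAA3 and ORM1 lie wholly outside the dashed lines in both comparisons, those of CRP and LBP reach just inside the line in CM versus IM, and those of HP and IL6R cross 0 in both.

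Other positive acute phase genes were followed through a list of 35, of which 30 were matched. The ITIH4-like entry LOC100737917, whose values may not be independent of ITIH4, is among them. It is counted below with the lower genes in CM versus IM and the higher genes in CMT versus CM. Of these 30, 11 were at least 1.5-fold lower and 1 higher in CM than in IM, against 12.1% and 11.1% of all mRNA features. For CMT versus CM, 14 were higher and 3 lower, against 12.1% and 13.5%. The median log2 ratios were -0.41 and 0.48. With hepatocyte markers as the scale, where 6.01% of all features were lower and 24.04% higher in CM versus IM, 8 of the 30 were lower and 3 higher. In CMT versus CM that scale left 12 higher and 4 lower, against 6.08% and 25.3% of all features, and medians of -0.10 and 0.18. APCS, the serum amyloid P pentraxin related to CRP, had the widest difference of the list at 6542 FPKM in IM, against 511.4 in CM and 8867 in CMT, with CM 12.8-fold below IM (11.6 to 14.2) and CMT 17.3-fold above CM (15.7 to 19.2). LRG1, a leucine-rich plasma glycoprotein, stood at 2370, 782.4 and 4341 FPKM, 3.03-fold lower in CM than in IM and 5.55-fold higher in CMT than in CM. Both had the order of ITIH4, CRP and LBP.

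The fibrinogen chains, the substrate of clotting, behaved alike and had the same order. FGA stood at 50861, 23414 and 73313 FPKM, FGB at 46989, 21358 and 67812, and FGG at 31880, 16745 and 46457. CM was 2.17-fold, 2.20-fold and 1.90-fold below IM for the 3 chains, and CMT was 3.13-fold, 3.18-fold and 2.77-fold above CM. SAA4, a constitutively made serum amyloid A, had this order too at 397.9, 203.7 and 516.8 FPKM, the reverse of SAA3. A2M, PLG and SERPINA3-2, which act on or as proteases, were 1.74-fold, 1.56-fold and 1.55-fold lower in CM than in IM and 2.06-fold, 1.98-fold and 1.95-fold higher in CMT than in CM. By column sums, recovered reads or hepatocyte markers all 3 fell short of 1.5-fold in CM versus IM, at log2 ratios from -0.54 to -0.32. They stayed past it in CMT versus CM.

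CP, the copper carrier ceruloplasmin, had the same order at 5998, 4429 and 8769 FPKM, but was under 1.5-fold in CM versus IM and 1.98-fold higher in CMT than in CM. LCN2, a siderophore-binding protein, had it too, at 9.87, 6.60 and 26.8 FPKM on 34, 31 and 75 reads, with CMT 4.06-fold above CM (2.64 to 6.38).

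Not all of the list shared this order. HAMP, which encodes the iron hormone hepcidin, stood at 4028, 1669 and 2875 FPKM, so that IM and not CMT was the highest. MT1A, a metal-binding metallothionein, was the 1 gene of the list that was at least 1.5-fold higher in CM than in IM, at 14069, 37008 and 4529 FPKM, and it shared the direction of SAA3 and ORM1. TIMP1, an inhibitor of matrix proteases, was 1.63-fold lower in CMT than in CM, on 37, 71 and 26 reads.

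**Figure D5:**
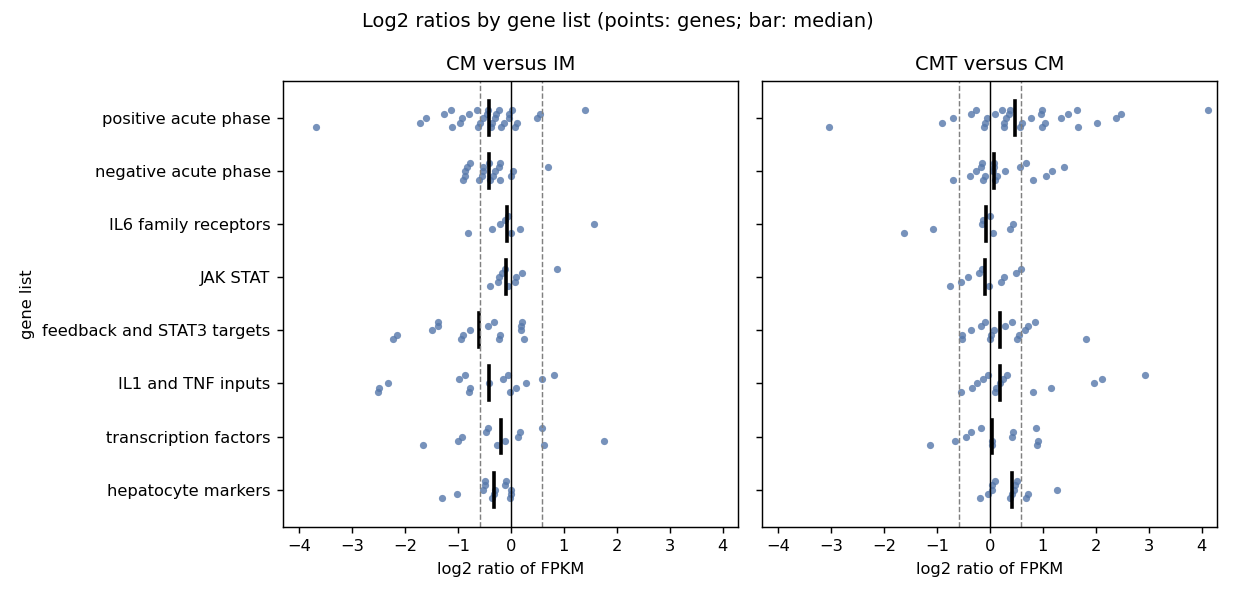
Log2 ratio of FPKM in CM versus IM and CMT versus CM for the genes of 8 lists with FPKM of at least 1 in all libraries, 1 point per gene, with the list median as a black bar and dashed lines at 1.5-fold. The medians of the positive and the negative acute phase lists are both at -0.41 in CM versus IM and separate to 0.48 and 0.08 in CMT versus CM.

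Negative acute phase genes did not run opposite to the positive ones in CM versus IM. Of 19 matched of 20, 6 were at least 1.5-fold lower and 1 higher in CM than in IM (12.1% and 11.1% of all features), and 5 were higher and 1 lower in CMT than in CM (12.1% and 13.5%), with median log2 ratios of -0.41 and 0.08. With hepatocyte markers as the scale, 1 was lower and 1 higher in CM versus IM, against 6.01% and 24.04% of all features. On that scale 3 were higher and 2 lower in CMT versus CM, against 6.08% and 25.3%, and the medians were -0.10 and -0.22. ALB was 1.45-fold lower in CM than in IM and stayed low in CMT. KNG1, HRG and F12, plasma proteins of the contact system and of clot control, were 1.88-fold, 1.79-fold and 1.82-fold lower in CM than in IM and 2.09-fold, 1.76-fold and 1.60-fold higher in CMT than in CM. With recovered reads or hepatocyte markers as the scale, HRG and F12 fell short of 1.5-fold in both comparisons. IGF1, the growth factor made by liver, stood at 59.4, 32.6 and 29.1 FPKM and so was low in both castrated pools.

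Cytokine ligands of the IL6 family, listed together with IL22, which signals to STAT3 through a receptor of its own, were low in whole liver. The 7 matched ligands summed to 17.5, 26.8 and 28.4 FPKM. IL6 stood at 1.42, 0.78 and 1.31 FPKM on 4, 3 and 3 reads, too few for any comparison. OSM (oncostatin M), also a hepatocyte-acting cytokine, stood at 2.84, 2.68 and 0.50 FPKM on 14, 18 and 2 reads, and IL22 was listed at 0 in all libraries. Only 3 of the 7 matched ligands passed an FPKM of 1 in every library. Of these, 2 lay at least 1.5-fold above IM in the CM library and 0 below it, against 11.1% and 12.1% of all features. The 2 higher ligands were CNTF, at 2.37, 4.34 and 6.55 FPKM on 8, 20 and 18 reads, and IL27, at 3.50, 11.57 and 12.9 FPKM on 4, 18 and 12 reads. Both were also past 1.5-fold in CMT versus IM. On so few reads the interval of the CM versus IM ratio of CNTF, 0.77 to 4.82, holds 1.

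Among 8 receptors of the family, IL6R and IL6ST included, 1 lay above IM and 1 below it in CM by 1.5-fold. In CMT versus CM, 0 were higher and 2 lower. Of all features, 11.1%, 12.1%, 12.1% and 13.5% did so in the same order, so the receptor counts in CM versus IM were near those shares. By column sums, recovered reads or hepatocyte markers 0 lay below IM in CM, where 6.87%, 6.42% and 6.01% of all features did. The gene that was higher in CM was IL22RA1, a subunit of the IL22 receptor, at 26.0, 77.5 and 36.6 FPKM. LEPR, the leptin receptor, which also signals through STAT3, was at 231.6, 262.4 and 85.6 FPKM, and CMT was 3.07-fold below CM. The 10 JAK and STAT pathway genes, STAT3 among them, had median log2 ratios of -0.09 in CM versus IM and -0.08 in CMT versus CM. Scaled to column sums, recovered reads or hepatocyte markers, these medians were 0.17 to 0.23 and -0.38 to -0.32, so the sign in CM versus IM depends on the scale.

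Inhibitors of cytokine signalling and STAT targets were listed as well, and whether their values follow IL6 signalling was not tested. Of 16 such genes, 8 were at least 1.5-fold lower and 0 higher in CM than in IM, and 4 were higher and 0 lower in CMT than in CM, beside 12.1% lower and 11.1% higher of all features in the first comparison and 12.1% higher and 13.5% lower in the second. With hepatocyte markers as the scale, 7 were lower and 0 higher in CM versus IM, where 6.01% and 24.04% of all features were. In CMT versus CM that scale turned the count to 1 higher and 3 lower, against 6.08% and 25.3% of all features. The median log2 ratio went from 0.19 to -0.11. Column sums as the scale gave 2 higher and 3 lower, against 6.73% and 22.9%. SOCS3, the feedback inhibitor that STAT3 induces, did not pass 1.5-fold with the deposited values, at 78.3, 93.2 and 64.8 FPKM on 58, 94 and 39 reads. In CMT versus CM its log2 ratio was -0.52 as deposited. It passed 1.5-fold at -0.59 by upper quartile, -0.77 by column sums, -0.76 by recovered reads and -0.82 by hepatocyte markers. SOCS2 and CISH, feedback genes best known downstream of growth hormone and STAT5, had the widest differences. SOCS2 was at 577.7, 129.3 and 213.9 FPKM and CISH at 365.2, 78.3 and 274.8 FPKM, so CM was 4.47-fold (4.17 to 4.79) and 4.67-fold (3.75 to 5.85) below IM. MYC, JUNB and CEBPB, transcription factors, were 2.81-fold, 2.59-fold and 2.61-fold lower in CM than in IM and remained at least 1.5-fold below IM in CMT.

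Of 15 genes of the IL1 and TNF inputs, 7 were at least 1.5-fold lower and 1 higher in CM than in IM, and 5 were higher and 0 lower in CMT than in CM, beside 12.1%, 11.1%, 12.1% and 13.5% of all features in the same order. With hepatocyte markers as the scale, 4 were lower and 3 higher in CM versus IM, against 6.01% and 24.04% of all features. In CMT versus CM, 4 were higher and 2 lower on that scale, against 6.08% and 25.3%. TNF stood at 106.2, 19.0 and 144.8 FPKM on 222, 54 and 246 reads, with CM 5.60-fold below IM (4.14 to 7.69). IL1B was at 30.02, 6.01 and 23.5 FPKM on only 11, 3 and 7 reads. NFKBIA, the inhibitor of NF-kB, was 1.71-fold lower in CM than in IM, but short of 1.5-fold by column sums, recovered reads or hepatocyte markers. IL18 was the gene that was higher, at 133.3, 236.0 and 186.6 FPKM.

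Macrophage and neutrophil genes also differed between pools. MARCO, a scavenger receptor of macrophages, stood at 413.6, 82.8 and 317.1 FPKM and was, like TNF, lowest in CM. In sum the 11 macrophage markers ranged only from 19149 to 22196 FPKM. By 1.5-fold, 0 were higher and 2 lower in CM versus IM, against 11.1% and 12.1% of all features. Of the 8 neutrophil markers 5 were at least 1.5-fold lower and 0 higher in CM than in IM, against 12.1% and 11.1% of all features. Of the 12 T and NK cell markers 11 were highest in CM, as were 5498 of the 15613 mRNA features. By 1.5-fold, 1 of these 12 lay above IM in the CM library and 7 were lower in CMT than in CM, against 11.1% and 13.5% of all features. With hepatocyte markers as the scale these counts were 7 and 10, against 24.04% and 25.3% of all features. The part of these cells in the values of the 10 genes was not tested.

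Transcription factors that act on acute phase promoters went in both directions. Of 12, 3 lay below IM in the CM library and 2 above it, and 3 were higher and 2 lower in CMT than in CM, beside 12.1%, 11.1%, 12.1% and 13.5% of all features in the same order. In CMT versus CM, 3 were higher and 4 lower by column sums, against 6.73% and 22.9% of all features. With hepatocyte markers as the scale 2 were higher and 4 lower, against 6.08% and 25.3%. FOXA2 stood at 173.5, 54.6 and 102.3 FPKM and its relative FOXA3 at 59.6, 200.8 and 91.2 FPKM, so that these forkhead factors changed places in CM. NR1H4, the bile acid receptor FXR, and PROX1 were 1.99-fold and 1.90-fold lower in CM than in IM and 1.82-fold and 1.85-fold higher in CMT than in CM. With hepatocyte markers as the scale NR1H4 fell just short of 1.5-fold in CMT versus CM, at a log2 ratio of 0.57.

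The patterns of the 10 genes were compared with those of mRNA features at FPKM of at least 10 in all libraries, by distance in the plane of the log2 ratios of CM versus IM and CMT versus CM. For ITIH4 the nearest were AHR at a distance of 0.047, LOC100151901 at 0.094 and LOC100737917 at 0.112. CRP had LOC100625759, SUS2DD and VPS13D as its nearest, LBP had EPOR, LOC100517809 and LOC100738008, and SAA3 had CXCL14, LOC100514958 and GPR183. Of features within 0.1 log2 units there were 2 for ITIH4, 0 for LBP, 5 for CRP, 8 for SAA3 and 10 for ORM1. For the genes nearer the centre there were many more, from 170 for STAT3 to 422 for HP, so the names of their nearest features carry little. With 3 libraries a likeness of this kind is a description of 2 ratios and nothing more.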

How the data were processed

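Liver RNA of each group was pooled, poly-A libraries (TruSeq) were sequenced as paired reads on a HiSeq 2000, and the authors mapped them with TopHat to Sscrofa 10.2 and deposited 1 FPKM value per feature and library. The counting program and annotation are not given in the sources used here. The 10 genes and all lists were chosen with earlier results of these data known.

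FPKM values were used as deposited (Python 3.11.15, numpy 2.4.6, pandas 2.3.3, scipy 1.17.1). A ratio counted when FPKM was at least 1 in all 3 libraries and the ratio at least 1.5. FPKM values of a library are whole multiples of 1 read on the feature's length. With library divisors of 2.51, 3.42 and 2.04 reads per FPKM and kilobase, whole reads were recovered for 23090 of 24277 features above 0 (95.1%, relative tolerance 1e-09), taking the shortest length that gives whole numbers in all libraries. The divisors are not in proportion to the recovered reads, and FPKM values were 10.6 to 12.8 times those that scaling by recovered reads would give. On 3000 simulated features for CM versus IM, 92.7% of reads were recovered exactly and 100% up to a common factor. Exact (Clopper-Pearson) 95% binomial intervals followed from these reads. The recovered totals are close to the numbers of uniquely mapped reads that the study reports for its paired-end libraries. Both mates of a pair may therefore have been counted, and the intervals are then too narrow. Besides the 10 genes, the text names list genes past 1.5-fold in CM versus IM or CMT versus CM, IL6, OSM, SOCS3, LOC100737917 and ALB, and, for likeness, the 3 nearest features. IL22, the unmatched markers and genes said to be named after their values were seen are exceptions. Alternatives were 5 scalings, a pseudocount of 1, FPKM minimums, a 2-fold limit, and summing similar entries. No sequence is printed, and no coordinates, since the reference table is on Sscrofa11.1 and was used for names and neighbours only. Some genes of the lists that passed these limits are not reported here by name.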

Additional observations from a re-analysis of the deposited data

How the results depend on the processing

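Leaving out a library was not possible with 1 per group, and no paired analysis was possible because each group has 1 library. Of the 14 differences past 1.5-fold among 30, 10 stayed past it under all 5 scalings and 0 changed sign, and a pseudocount of 1 moved no log2 ratio by more than 0.0017. The count of genes past 1.5-fold in CM versus IM was 5 and came to 3 with hepatocyte markers as the scale (2 higher, 1 lower), and a 2-fold limit left 2 in CM versus IM and 1 in CMT versus IM. Median log2 ratios over the genes in CM versus IM were -0.36 by median ratio, -0.34 by upper quartile, -0.12 by column sums, -0.10 by recovered reads, -0.066 by hepatocyte markers and -0.39 without SAA3. In CMT versus CM the same alternatives gave 0.33, 0.27, 0.092, 0.10, 0.044 and 0.43, and in CMT versus IM 0.23, 0.19, 0.23, 0.26, 0.24 and 0.21. Leaving out SAA3 and summing ITIH4, CRP or ORM1 with similar entries were chosen after the data were seen. Depth limits IL6R, IL6, OSM and IL1B, and the lack of replicates limits all values.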
